A study of Mus musculus with 4 samples.

Results

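The Ras to Erk cascade was examined through 7 of its genes, *Hras*, *Nras*, *Sos1*, *Sos2*, *Braf*, *Map2k1* and *Mapk3*, taken by name from a table of 21090 genes. All 7 were present and all 7 passed the filter on low values, a mean of at least 1 RPKM over the libraries. RPKM counts the reads of a gene relative to its length in kilobases and to the depth of the library. RNA-seq had been done on 4 mouse mammary tumor cell lines, with 1 library per line. Per the paper, the lines derive from the primary tumor of a mouse that also had lung metastases. In this mouse Cre under the MMTV promoter switched on an activated *Pik3ca* and a mutant *Trp53*. By that account all 4 lines share both alleles. The control group (n = 2) held the parental line, labelled only as 307 cells, and 307 cells with the vector control. The knockout group (n = 2) held 307 cells edited in exon 3 of *S100a4* and cells labelled 308 edited in exon 2, each with a lentivirus carrying Cas9, a guide RNA and puromycin resistance. Why the exon 2 line has another number, and whether any line grew from 1 cell, is not stated. Each library is a separate line, so the spread within a group is a spread between lines, and no line was measured again. RPKM values are given below in the order parental line, vector control, exon 3 knockout and exon 2 knockout.

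In this cascade a growth factor receptor brings the exchange factors Sos1 and Sos2 to the membrane through the adaptor Grb2. Sos proteins load small GTPases such as Hras and Nras with GTP. GTP-bound Ras recruits Raf kinases such as Araf and Braf, which phosphorylate Mek1 and Mek2 (*Map2k1* and *Map2k2*), and these phosphorylate Erk kinases such as Erk1 (*Mapk3*). Ras also binds the catalytic subunit encoded by *Pik3ca*, the gene activated in these tumors. The cascade is controlled mainly by phosphorylation and GTP loading, which RNA levels do not measure.

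The Ras genes are close paralogues, as are the Sos genes, so shared stretches of sequence were looked for. Over the coding sequences of *Hras* and *Nras*, 570 bases each, the longest identical run was 23 bases. For *Sos1* and *Sos2* (3960 and 4002 coding bases) the longest identical run was 32 bases. Both runs are shorter than the reads that the paper describes. Thus no whole read within these coding sequences matches both genes of a pair exactly. How reads that match several genes were counted is not stated.

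The edited gene served as a check of the labels. *S100a4* stood at 3576 and 4741 RPKM in the controls and at 1136 and 1105 RPKM in the knockouts, so the knockouts held 26.9% of the control mean. On the log2 scale this was -1.88 ± 0.311 (SE; limma adjusted p = 0.0731), and log2 changes carry their SE in this form below. The RNA level does not measure loss of the protein. For that, the paper reports truncating mutations in most *S100a4* transcripts of the knockout lines and a Western blot. The library totals behind the RPKM ranged from 22472024 to 31235456 reads, the knockouts being the 2 shallower ones. Of 6 epithelial markers, *Krt8* and *Krt18* had a mean of at least 1 RPKM and *Epcam*, *Cdh1*, *Krt5* and *Krt14* did not, while all 6 mesenchymal markers did. The summed epithelial markers gave 34.3 to 130 RPKM in the controls and 74.8 to 107 RPKM in the knockouts, and the summed mesenchymal markers 2289 to 3750 RPKM and 1858 to 2156 RPKM. The 4 leukocyte markers summed to 3.38 to 4.92 RPKM in the controls and 11.5 to 13.2 RPKM in the knockouts, nearly all of it *Cd68*, with *Cd3e* listed at 0 throughout. The 3 endothelial markers stayed at or below 0.433 RPKM. The part of these markers in the results below was not tested, and in bulk RNA fewer cells of a type and less RNA per cell cannot be told apart.

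The cascade genes lay at very different levels, highest at the kinase end and lowest at *Braf*. Means over the 4 libraries (± SD, n = 4) were 138 ± 40.8 RPKM for *Mapk3*, 96.6 ± 9.23 for *Map2k1*, 58.4 ± 9.43 for *Nras*, 35.9 ± 9.27 for *Hras*, 7.46 ± 3.01 for *Sos1*, 5.30 ± 2.47 for *Sos2* and 2.39 ± 1.14 for *Braf*. In this order the ranges of *Mapk3* and *Map2k1* overlapped, as did those of *Sos1* and *Sos2* and of *Sos2* and *Braf*, and the other neighbours were apart in every library. *Mapk3* lay at percentile 93.8 of the 10871 tested genes by mean RPKM and *Braf* at percentile 8.56. The gene length inferred from the RPKM was 961 bases for *Hras*, 663 for *Nras*, 2765 for *Braf*, 1196 for *Map2k1* and 1142 for *Mapk3*. These lengths differ from the joined coding exons in GENCODE M21 (702, 600, 2534, 1182 and 1222 bases), so levels set between genes depend on a gene model that is not stated. In a ratio between libraries the length cancels, but the choice of which reads were counted does not. For *Sos1* and *Sos2* the lengths were the annotated coding lengths.

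**Figure D1:**
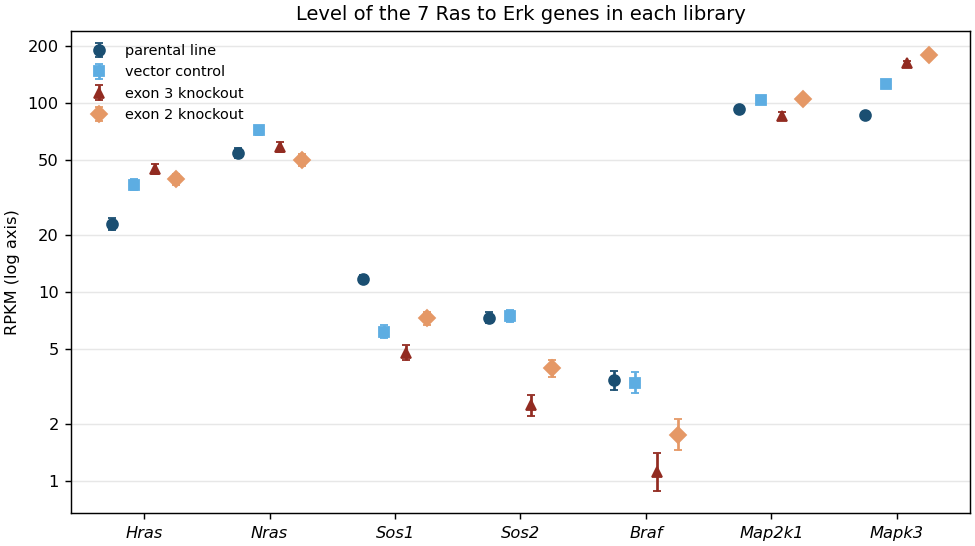
RPKM (log axis) of the 7 genes in the parental line, vector control, exon 3 knockout and exon 2 knockout, with 95% Wilson intervals that cover counting error only. *Sos2* and *Braf* sit lower in both knockouts than in both controls, *Hras* and *Mapk3* sit higher, and *Nras*, *Sos1* and *Map2k1* overlap.

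Knockouts and controls were compared to ask whether the cascade genes differ when *S100a4* is edited. *Sos2* and *Braf* were lower and *Hras* and *Mapk3* higher in both knockouts than in both controls, while *Nras*, *Sos1* and *Map2k1* overlapped between the groups. Thus 2 of the 7 genes were lower without overlap and 2 were higher, where 31.2% of all tested genes were lower in this way and 21.9% were higher. By limma on log2(RPKM + 1), a scale on which the change of low genes is understated, 0 of the 7 had an adjusted p under 0.05, where 0.0184% of tested genes did. An unadjusted p under 0.05 was reached by *Sos2* and *Braf* among lower genes (13.8% of tested genes) and by *Mapk3* among higher genes (5.32%), and by none of the 7 when the exon 3 knockout was left out and by 1 without the parental line or without the exon 2 knockout. With limma voom on reads recovered from the RPKM, 0 of the 7 had an adjusted p under 0.05 and 2 had an unadjusted p under 0.05. None of the 7 was at least 2-fold apart in all 4 pairs of a knockout and a control, against 3.29% of tested genes lower and 0.423% higher by that measure. Without the exon 2 knockout, which is left with 2 pairs, *Sos2* and *Braf* met it. The exact permutation test of 2 libraries against 2 cannot go below a two-sided p of 0.33.

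The exchange factors stand at the entry of the cascade. *Sos2* (chromosome 12, 69583762 to 69681852, GRCm38, 23 coding exons) was at 7.30, 7.46, 2.50 and 3.94 RPKM, resting on 913, 758, 235 and 354 reads. The controls were nearly equal, and both knockouts lay well under them. The control mean was 7.38 ± 0.109 RPKM and the knockout mean 3.22 ± 1.01 RPKM (SD, n = 2 each), so the knockouts held 43.6% of the control level. On the log2(RPKM + 1) scale the change was -1.01 ± 0.352 (limma adjusted p = 0.179). *Sos1* (chromosome 17, 80393751 to 80480453, 22 coding exons), which encodes the close relative of Sos2, was at 11.7, 6.15, 4.75 and 7.23 RPKM. The parental line stood apart at the top, the exon 2 knockout lay above the vector control, and the groups overlapped. Its log2 change was -0.47 ± 0.385 (limma adjusted p = 0.516), -0.06 without the parental line and -0.89 without the vector control. *Sos1* exceeded *Sos2* in 3 libraries, at 1.61 times its level in the parental line and 1.90 and 1.84 times in the knockouts, and was 0.825 times *Sos2* in the vector control. The sum of both was 19.0 and 13.6 RPKM in the controls and 7.26 and 11.2 RPKM in the knockouts.

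The Ras GTPases are the switch that Sos proteins turn on. *Hras* (chromosome 7, 141189105 to 141194005) was at 22.9, 36.8, 44.6 and 39.3 RPKM, from 686 to 1006 reads. The parental line was the low library, and the vector control lay just under the exon 2 knockout, with overlapping 95% Wilson intervals (34.5 to 39.3 RPKM in the vector control, from 36.7 RPKM in exon 2). The log2 change was 0.51 ± 0.328 (limma adjusted p = 0.407), 0.18 without the parental line and 0.85 without the vector control. *Nras* (chromosome 3, 103058285 to 103067914) was at 54.2, 71.5, 58.3 and 49.6 RPKM, with the vector control highest and the exon 2 knockout lowest. Its log2 change was -0.21 ± 0.305 (limma adjusted p = 0.732). *Nras* was 2.37 and 1.94 times *Hras* in the controls and 1.31 and 1.26 times in the knockouts.

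*Braf*, the Raf kinase best known for mutations in melanoma, was the least abundant of the 7. It was at 3.39, 3.30, 1.11 and 1.75 RPKM, from 293, 232, 72 and 109 reads. The controls were indistinguishable at this depth and the 95% Wilson intervals of the knockouts, 0.881 to 1.40 and 1.45 to 2.12 RPKM, ended below those of the controls, which began at 3.03 and 2.91 RPKM. The knockouts held 42.8% of the control mean. The log2 change on the pseudocount scale was -0.85 ± 0.370 (limma adjusted p = 0.246), and with voom on reads, which adds a smaller offset, it was -1.26 (adjusted p = 0.189 in limma voom). *Braf* lies on chromosome 6 from 39603237 to 39725463 on the minus strand, and 146 bases of its exons overlap *Ndufb2* on the plus strand. *Ndufb2*, a subunit gene of respiratory complex I, was at 56.5, 84.2, 98.7 and 73.7 RPKM, lowest in the parental line and highest in the exon 3 knockout. Whether counting used the strand is not stated. The related kinase gene *Araf* was more abundant and lay on the other side, at 28.4, 31.0, 42.4 and 36.8 RPKM (0.40 ± 0.299 on the log2 scale, limma adjusted p = 0.473). *Araf* was 8.36 and 9.38 times *Braf* in the controls and 38.3 and 21 times in the knockouts. This ratio adds no separate result, since *Braf* was lower and *Araf* higher without overlap.

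*Sos2* and *Braf* are among the genes the study names as affected in its knockouts, chosen on these same libraries, so their direction here is no independent evidence. Their patterns over the 4 libraries were the most alike of the 21 pairs of the 7 genes, with a Euclidean distance of 0.183 between centred log2(RPKM + 1) values. The next pairs were *Hras* with *Mapk3* (0.301) and *Nras* with *Map2k1* (0.448). Other tested genes lay nearer to each, the nearest at 0.0378 from *Braf* and 0.0465 from *Sos2*. The *Braf* and *Sos2* promoters are printed because these genes were the closest pair of the 7. Each run is the 250 bases before the RefSeq start (GRCm38.p6, minus strand, 5′ to 3′), at chr6:39725464-39725713 for *Braf* and chr12:69681853-69682102 for *Sos2*. Capitals mark a cyclic AMP response element (TGACGTCA) or a GC box (GGGCGG or its reverse complement CCGCCC).

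Braf: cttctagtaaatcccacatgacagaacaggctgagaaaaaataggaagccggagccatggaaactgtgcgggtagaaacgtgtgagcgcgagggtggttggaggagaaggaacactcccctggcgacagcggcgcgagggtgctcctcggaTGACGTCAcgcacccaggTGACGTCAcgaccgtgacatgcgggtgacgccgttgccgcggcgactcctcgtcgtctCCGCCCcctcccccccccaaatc
Sos2: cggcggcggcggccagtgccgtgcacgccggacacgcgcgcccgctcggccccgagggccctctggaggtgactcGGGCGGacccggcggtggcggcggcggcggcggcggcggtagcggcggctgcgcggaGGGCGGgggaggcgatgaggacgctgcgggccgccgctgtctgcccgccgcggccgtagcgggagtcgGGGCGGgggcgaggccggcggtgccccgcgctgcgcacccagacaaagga

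The *Braf* window held TGACGTCA 2 times and 1 GC box, and the *Sos2* window held 3 GC boxes and no TGACGTCA. Among 32851 RefSeq promoters, 1.55% held TGACGTCA and 32.7% held a GC box within 250 bases. Of the 7 genes, 6 had a promoter in the table, *Mapk3* not among them. *Hras* held 3 GC boxes, *Nras* 2, *Map2k1* 4 and *Sos1* 0, so GC boxes occurred before genes of both directions. The ETS core CCGGAAG, on either strand, was in none of the 6 windows and in 6.91% of all promoters. The GC content of the windows ran from 48.4% in *Nras* to 82.8% in *Sos2*, beside a median of 52.4% over all promoters. A match of letters does not show that a factor binds.

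The Mek and Erk kinases close the cascade. *Mapk3*, which encodes Erk1 (chromosome 7, 126759601 to 126765819), was at 86.2, 126, 162 and 178 RPKM, from 3076 to 4570 reads. Both knockouts lay above both controls, and the gap between the controls was wider than the gap between the knockouts. The control mean was 106 ± 28.4 RPKM and the knockout mean 170 ± 11.4 RPKM (SD, n = 2 each), a ratio of 1.6. The log2 change was 0.70 ± 0.309 (limma adjusted p = 0.250), 0.42 without the parental line and 0.97 without the vector control. *Map2k1*, which encodes Mek1 (chromosome 9, 64185770 to 64253631), was the steadiest of the 7, at 92.9, 103, 85.3 and 105 RPKM. Its highest library was 1.24 times its lowest, and its log2 change was -0.04 ± 0.295 (limma adjusted p = 0.957), a sign that turned under median ratio scaling (0.05). The paralogue *Map2k2* (Mek2) was at 94.3, 114, 148 and 131 RPKM. *Map2k2* was higher in both knockouts, with a log2 change of 0.42 ± 0.294 (limma adjusted p = 0.444). The ratio of *Map2k2* to *Map2k1* was 1.02 and 1.11 in the controls and 1.74 and 1.24 in the knockouts, and that of *Mapk3* to *Map2k1* was 0.928 and 1.23, then 1.90 and 1.69.

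**Figure D2:**
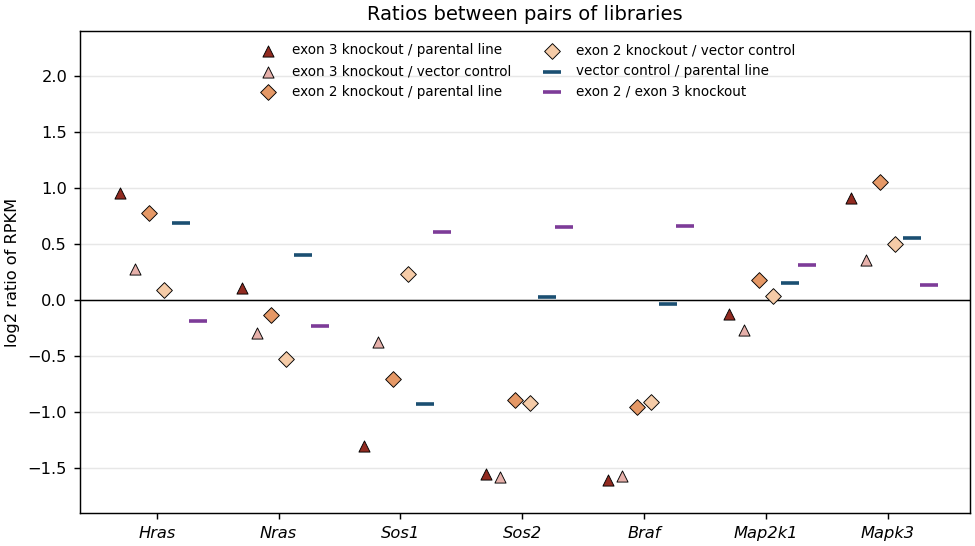
Log2 ratio of RPKM for each of the 7 genes in the 4 pairs of a knockout and a control (triangles and diamonds) and in the pairs within a group (dashes). *Sos2* and *Braf* are below 0 in all 4 pairs, from -1.61 to -0.89, while *Hras* and *Mapk3* are above 0, from 0.09 to 1.05, with the vector control over the parental line also above 0.

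The libraries within each group were set against each other to show how far lines of 1 group differ. There is 1 library per line, so no test was made, and intervals are exact binomial 95% intervals on the reads. Between the controls, 0 of the 7 genes differed at least 2-fold (11.9% of tested genes did) and 2 differed at least 1.5-fold (31.7%). *Hras* was 1.61 times as high in the vector control (1.46 to 1.78), and *Sos1* was 0.525 times as high (0.477 to 0.577). *Mapk3* stood at 1.47 times (1.40 to 1.54) and *Nras* at 1.32 times (1.22 to 1.43), whereas *Sos2* and *Braf* stood at 1.02 times (0.926 to 1.13) and 0.974 times (0.816 to 1.16). Thus *Hras* and *Mapk3* already differed between the controls in the direction in which the knockouts differed from them, and *Sos2* and *Braf* did not differ between controls beyond counting error.

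Between the exon 2 and exon 3 knockouts, 0 of the 7 differed at least 2-fold (9.85% of tested genes did). *Sos1*, *Sos2* and *Braf* were at least 1.5-fold higher in the exon 2 knockout, as were 17.7% of tested genes, at 1.52 times (1.34 to 1.72), 1.57 times (1.33 to 1.86) and 1.58 times (1.16 to 2.16). *Map2k1* was 1.24 times as high (1.17 to 1.31) and *Mapk3* 1.10 times (1.05 to 1.15), while *Hras* was at 0.881 times (0.803 to 0.966) and *Nras* at 0.850 times (0.770 to 0.938). *Sos2* and *Braf* were therefore lowest in the exon 3 knockout and intermediate in the exon 2 knockout, which was labelled as another cell number.

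The difference between the groups went with base composition over all tested genes. These were ranked by the GC content of their coding sequence and parted into 10 bins. The median log2 change was -0.69 in the bin of lowest GC content and 0.224 in that of highest, and the share of genes lower in both knockouts was 69.5% in the former and 12.6% in the latter. Coding GC content was 44.7% in both *Sos1* and *Sos2*, 48.8% in *Nras* and *Braf*, 53.7% in *Hras*, 54.1% in *Map2k1* and 57.6% in *Mapk3*. The share of genes lower without overlap was 60.1% in the bin of *Sos2* and 45.6% in that of *Braf*. The share higher without overlap was 25.9% in the bin of *Hras* and 35.9% in that of *Mapk3*. The log2 change minus the median of the gene's own bin was 0.46 in *Hras*, 0.51 in *Mapk3*, 0.13 in *Nras* and 0.07 in *Sos1*, and it was -0.47 in *Sos2*, -0.52 in *Braf* and -0.10 in *Map2k1*. After correction of each library for GC content the change was -0.55 in *Sos2*, -0.66 in *Braf*, 0.38 in *Hras* and 0.43 in *Mapk3*, with *Nras* and *Sos1* at -0.01. After correction for GC content and gene length it was -0.34, -0.53, 0.30 and 0.37 in the first 4 genes, and *Sos1* turned to 0.20. After either correction 0 of the 7 had an unadjusted p under 0.05 in limma, and the genes higher without overlap went from 2 to 1 with the former and to 0 with the latter, while 2 were lower without overlap. The part of base composition in these differences was not tested further, and with 1 library per line it cannot be told apart from the line.

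**Figure D3:**
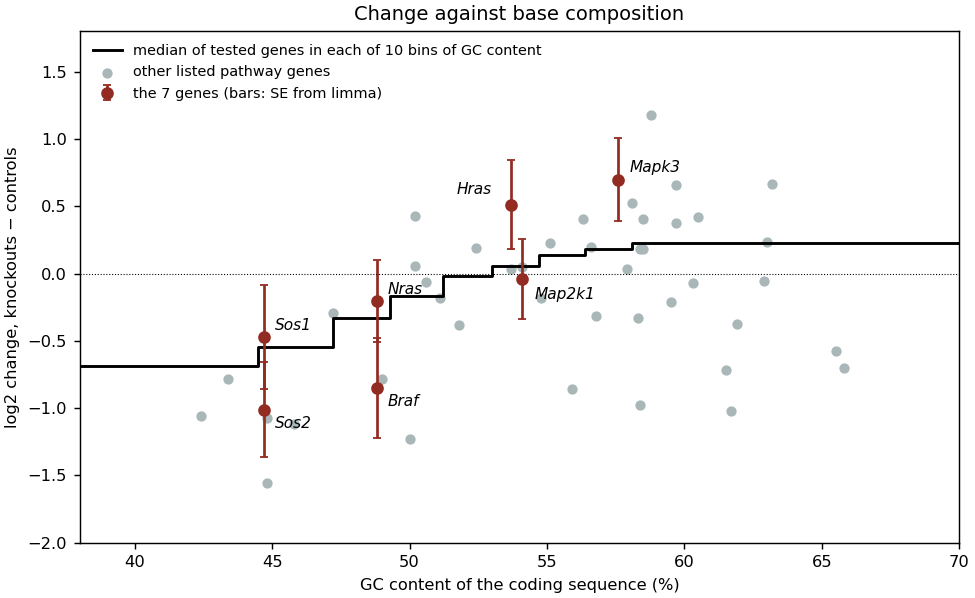
Log2 change on the log2(RPKM + 1) scale against coding GC content (%) for the 7 genes (red, bars are the SE from limma) and the other listed pathway genes (grey), with the median of all tested genes in each of 10 bins of GC content as a black line, drawn up to 70%. *Sos1*, *Nras* and *Map2k1* lie within 0.13 of the line, *Sos2* and *Braf* about 0.5 under it, and *Hras* and *Mapk3* about 0.5 above it.

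Other genes of the pathway were taken from a textbook list of 62 genes in 7 roles, the 7 genes included. Of these, 50 passed the expression filter. The median log2 change was -0.13, beside -0.08 over all tested genes, and 15 genes were lower and 9 higher without overlap (30% and 18%), shares near the 31.2% and 21.9% of all tested genes. By limma 0 of the 50 had an adjusted p under 0.05. An unadjusted p under 0.05 was reached by 12 lower genes (24.0%, beside 13.8% of all tested genes) and 3 higher genes (6.0%, beside 5.32%). These 15 became 7 after the GC correction, where the count over all 10871 tested genes went from 2076 to 1511. Among the Ras GTPases analysed here 3 of 6 were higher without overlap, beside 21.9% of all tested genes. *Rras2* among them was nearly level, at 59.2, 59.5, 63.2 and 60.2 RPKM (0.05 on the log2 scale). Besides *Hras* these include *Rras*, a Ras relative that regulates integrins, at 91.0, 82.5, 124 and 151 RPKM. Among exchange factors and adaptors 3 of 8 were lower (37.5%, beside 31.2% of all tested genes) and none was higher. *Frs2*, an adaptor for Fgf receptors, was at 16.2, 16.6, 7.32 and 11.2 RPKM, lower in both knockouts. *Grb2*, which carries Sos to receptors, was at 24.1, 30.4, 26.4 and 25.2 RPKM and overlapped, with a log2 change of -0.06 that turned to 0.03 under median ratio scaling.

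Ras GTPase-activating proteins (GAPs), which switch Ras off, were lower without overlap in 3 of 7 tested genes and higher in 1, beside 31.2% and 21.9% of all tested genes. *Rasa1* was at 25.8, 10.2, 3.23 and 7.25 RPKM, and the parental line stood far above the vector control. The log2 change of *Rasa1* was -1.55 ± 0.461 (limma adjusted p = 0.139). Leaving out the parental line gave -0.93, whereas leaving out the vector control gave -2.18. *Rasal2* was at 3.08, 3.35, 0.593 and 1.02 RPKM, from only 59 and 97 reads in the knockouts. It was the only gene of the 50 tested on the list at least 2-fold lower in all 4 pairs, beside 3.29% of all tested genes. *Rasa2* was lower, with a log2 change of -0.78. *Rasa4* was higher, at 27.0, 12.5, 33.9 and 54.4 RPKM. Its log2 change was 1.18 ± 0.397 (limma adjusted p = 0.172), 1.71 without the parental line and 0.65 without the vector control. *Shoc2*, a scaffold that helps to activate Raf, was at 18.6, 24.2, 6.36 and 14.0 RPKM.

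Feedback inhibitors restrain the cascade, and Erk targets are genes or kinases that act after it. Of 11 tested inhibitors 4 were lower without overlap (36.4%, beside 31.2% of all tested genes) and 1 was higher (9.09%, beside 21.9%). *Spry2* was at 27.1, 18.9, 8.18 and 17.5 RPKM, *Spry4* at 18.5, 6.41, 6.18 and 3.89 RPKM and *Spred1* at 35.7, 18.6, 8.73 and 14.7 RPKM, so in each the parental line was highest. *Spred3* had a log2 change of -0.58. *Dusp4*, a phosphatase of Erk in the nucleus, was the higher one, at 12.1, 10.5, 21.5 and 15.8 RPKM. Of 11 targets 3 were lower (27.3%) and 1 was higher (9.09%), both below the shares of all tested genes. *Egr1*, an immediate early transcription factor, was at 56.8, 44.3, 22.2 and 28.2 RPKM (-0.98 ± 0.312 on the log2 scale, limma adjusted p = 0.159). *Phlda1* had a log2 change of -0.70, and the Erk-activated kinase gene *Rps6ka3* was at 11.9, 18.6, 5.97 and 7.36 RPKM. After the GC correction the changes of the 7 lower genes of both roles were -1.07 in *Spry2*, -1.35 in *Spry4*, -0.71 in *Spred1*, -0.90 in *Spred3*, -1.26 in *Egr1*, -1.02 in *Phlda1* and -0.52 in *Rps6ka3*. Several rested on 1 library. Without the parental line the change was -0.32 in *Spry4*, -0.66 in *Spred1* and -0.28 in *Spred3*, and without the exon 3 knockout it was -0.35 in *Spry2*. Without the vector control the change was -1.72 in *Spry4* and -1.57 in *Spred1*, and without the parental line it was -1.36 in *Rps6ka3*.

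**Figure D4:**
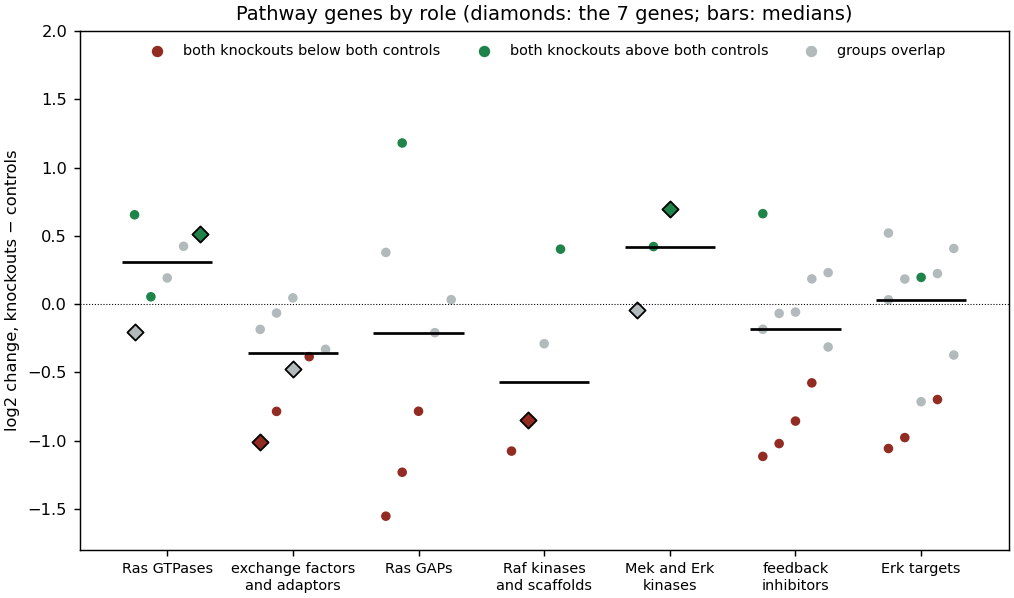
Log2 change of 50 pathway genes by role, with diamonds for the 7 genes and a bar for each median. Colours mark whether both knockouts lay below both controls (15 genes), above them (9) or overlapped (26).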

How the data were processed

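RNA-seq of 4 cell lines was deposited by the authors as RPKM, 1 column per library. The submitters' processing notes name CASAVA 1.8, GSNAP and GRCm38, and the gene model and counting rule are not given in the sources used here. Per the labels, groups followed the sample titles, and all columns were matched. RPKM values were brought to whole reads and gene lengths with GENCODE M21 (tolerance 0.001 reads, 100% of genes above 0), and the absolute read scale rests on the annotated lengths. The length equalled an annotated coding length in 59.9% of these genes. In the rest, among them *Hras*, *Nras*, *Braf*, *Map2k1* and *Mapk3*, it was inferred as a length that gives whole reads, so their read numbers are less certain. Genes with mean RPKM of at least 1 (10871) were tested by limma 3.58.1 (R 4.3.3) with an intensity trend on log2(RPKM + 1), 2 knockouts against 2 controls, no covariates, Benjamini-Hochberg over all tested genes, threshold 0.05. Fold counts used RPKM ratios without a pseudocount. The limma step was tested on simulated reads, whose spread within a group was a fixed setting and not taken from these lines. That test does not show how limma behaves at the spread seen here. GC and length corrections used natural splines (5 degrees of freedom) on each library's deviation from the gene mean, and 99.1% of tested genes had a coding GC content. Intervals cover counting error only. Named were the 7 genes, *S100a4*, *Rras2*, and listed pathway genes without overlap and with a log2 change of at least 0.5. Also named were core paralogues, adaptors, the 2 tested genes nearest to each of the 7 in pattern, and genes overlapping exons of the 7. Of the pathway list and the core paralogues, 3 genes are not reported here, nor are some sequences. The genes and lists were chosen with earlier results of these data known. Python 3.11.15 was used for other steps.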

Additional observations from a re-analysis of the deposited data

Results flagged for a closer look

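*Map2k1* was singled out because the exon 3 knockout lay below both controls and the exon 2 knockout above both. The latter gap is within counting error for the vector control. The 95% Wilson intervals of *Map2k1* overlapped there, at 102 to 109 RPKM in the exon 2 knockout and 99.1 to 106 RPKM in the vector control. *Map2k1* was 1.24 times as high in the exon 2 as in the exon 3 knockout. Each knockout has 1 library, so the difference was not tested. Of all tested genes, 7.88% had their knockouts on opposite sides of both controls.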

How the results depend on the processing

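No paired analysis was possible because the labels give the libraries no replicate numbers. In limma 0 of the 7 genes had an adjusted p under 0.05 under any of the alternatives run. *Sos2*, *Braf*, *Hras*, *Mapk3* and *Nras* kept the sign of their log2 change throughout, and the range was -1.26 to -0.34 for *Sos2*, -1.26 to -0.53 for *Braf*, 0.18 to 0.85 for *Hras*, 0.37 to 0.97 for *Mapk3* and -0.40 to -0.01 for *Nras*. The sign turned for *Sos1* (0.20, GC and length correction), for *Map2k1* (0.05 with median ratio scaling, 0.03 without the vector control, 0.11 without the exon 3 knockout), and for *Grb2* (0.03 with median ratio scaling, 0.10 without the vector control). Without a library the range was -0.19 to 0.11 for *Map2k1* and -0.23 to 0.10 for *Grb2*. The cause was not tested. Quantile normalization moved the median change of all tested genes from -0.078 to 0.041.

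Of the 7 genes, 3 had an unadjusted p under 0.05, against 0 with quantile normalization, GC correction or GC and length correction and 0 to 3 when a library was left out. For the pathway list 15 became 7 with quantile normalization, 7 with GC correction, 9 with GC and length correction and 2 to 17 without a library. Adjusted p under 0.05 was reached by 0 listed genes in limma with all libraries. Without 1 library the remaining line of that group was assumed to vary like the other group. Calls of listed genes are therefore not given there. Genes lower without overlap numbered 2, or 1 at mean RPKM of at least 5, which drops *Braf*, 3 with quantile normalization and 3 to 4 without a library, the 4 being without the exon 2 knockout. Higher genes numbered 2, but 1 after GC correction and 0 after GC and length correction, and 2 to 3 without a library. Without a library fewer pairs have to agree, so such counts are easier to reach. At least 2-fold in all pairs was met by 0, by 0 to 2 without a library (*Sos2* and *Braf* without the exon 2 knockout), and at least 1.5-fold by 2. Between the controls 0 differed 2-fold, against 1 with median ratio scaling, quantile normalization or GC correction and 2 at 1.5-fold. Between the knockouts 0 differed 2-fold and 3 differed 1.5-fold. *S100a4* passed the threshold with quantile normalization (-2.18) and at mean RPKM of at least 5 (-1.88). It also passed with a robust prior (-1.88) and after GC and length correction (-2.10). Its change was -2.08 without the parental line and -1.67 without the vector control.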

Other observations

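Several regulators of the cascade were listed at 0 in all 4 libraries. These were *Nf1* (a Ras GAP), *Ksr1* and *Ksr2* (scaffolds), *Rasgrp1* (an exchange factor) and *Rasal3*. *Nf1* is used by most cells, and an exact 0 in a table without deposited counts can be a failed estimate, so no level is drawn from it. *Spry3* was not analysed here.

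By distance over the 4 libraries, the tested genes nearest to *Sos2* were *Ankrd12* (0.0465) and *Nek7* (0.0528), and those nearest to *Braf* were *Myh10* (0.0378) and *Yy1* (0.0444). *Hras* was nearest to *BC056474* (0.0585) and *Bax* (0.0590), *Mapk3* to *Gtf3a* (0.0395) and *Pef1* (0.0519), *Nras* to *Sfxn4* (0.0334) and *Elk1* (0.0491), *Sos1* to *Phka2* (0.0720) and *Brpf3* (0.103), and *Map2k1* to *Med23* (0.0303) and *Dcun1d5* (0.0306). *Myh10*, a non-muscle myosin heavy chain, was at 28.7, 28.9, 13.8 and 17.9 RPKM in the parental line, vector control, exon 3 knockout and exon 2 knockout. Of these 14 genes, 7 were again nearest with a pseudocount of 0.1 or with voom on reads, 1 with quantile normalization or with GC correction, and 0 with GC and length correction.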
